A study of Mus musculus with 10 samples.

Results

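A set of 9 marker genes of dendritic cells was followed in macrophages of the small intestine after experimental stroke. They were found by gene name, all 9 among the 17279 genes of the deposited table, and all 9 passed the filter on low counts. Each library held RNA from CX3CR1-GFP+ cells of the lamina propria, the connective tissue under the intestinal epithelium, sorted by flow cytometry (FACS) 24 h after surgery. The groups were 5 libraries from sham-operated mice and 5 from mice with permanent middle cerebral artery occlusion (pMCAO), a model of ischaemic stroke. The genotype label gave C57BL6/J for both groups, no age was given, and replicate 1 of each group was marked as a pool.

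Dendritic cells take up antigen, move to lymph nodes and present it to T cells. Conventional dendritic cells develop under the growth factor receptor FLT3 and carry the transcription factor ZBTB46. They fall into a type 1 (cDC1), which depends on BATF3 and IRF8 and carries XCR1 and CLEC9A, and a type 2 (cDC2), which depends largely on IRF4. In the intestine many dendritic cells carry the integrin CD103, encoded by Itgae. CX3CR1 is a marker of intestinal macrophages, but some dendritic cells carry it too. Most of the 9 genes are also used outside the dendritic lineage, so levels in bulk RNA do not count dendritic cells, and fewer cells of a type and less RNA per cell cannot be told apart.

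Levels are given as CPM, each gene's count as a share of the library total on a fixed common scale, adjusted between libraries by the TMM method. All 14 macrophage markers were detected, among them Csf1r, the receptor for the growth factor CSF1, with a mean of 1028 CPM in sham and 1283 CPM in pMCAO libraries. Markers of other cells were present as well. All 10 T cell, 6 B cell, 6 plasma cell and 7 epithelial markers passed the filter on low counts. Total counts ranged from 18894151 to 60665972 in the sham group and from 6430643 to 28672285 in the pMCAO group. Xist, an RNA of the silenced X chromosome in females, had 1755 CPM in replicate 5 of the sham group. In replicate 4 of the pMCAO group it had 4460 CPM, and elsewhere it lay between 1.39 and 4.92 CPM. The labels give no sex, and results were therefore also computed without both of these libraries. Sham replicate 5 and pMCAO replicate 5 had the lowest summed macrophage genes, 8483 and 9351 CPM, where the other 8 libraries had 11710 to 18526 CPM. In replicate 2 of each group 6 plasma cell genes summed to more, 25357 against 14148 CPM in sham and 28236 against 11710 CPM in pMCAO. In sham replicate 5, 7 mast cell genes summed to 20626 CPM. In every other library both sums were below that of the macrophage genes.

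No member differed between the groups beyond the spread of the libraries. With edgeR's quasi-likelihood test and Benjamini-Hochberg adjustment over 16949 genes, 0 of the 9 members had a false discovery rate (FDR) of at most 0.05, and their FDR lay between 0.922 and 0.985. The share of all genes called was 0%. At an unadjusted p under 0.05 the count was 0 of 9 members, against 799 of 16949 genes (4.71%). The groups overlapped for every member, whereas they did not overlap for 168 genes (0.991%). Of the members 5 had a positive and 4 a negative log2 fold change, with a median of 0.065, beside a median of -0.0059 over all genes tested. The 95% interval was widest for Itgae and narrowest for Irf8, and a p that misses the threshold does not show that the levels were alike. The labels name no batch.

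**Figure D1:**
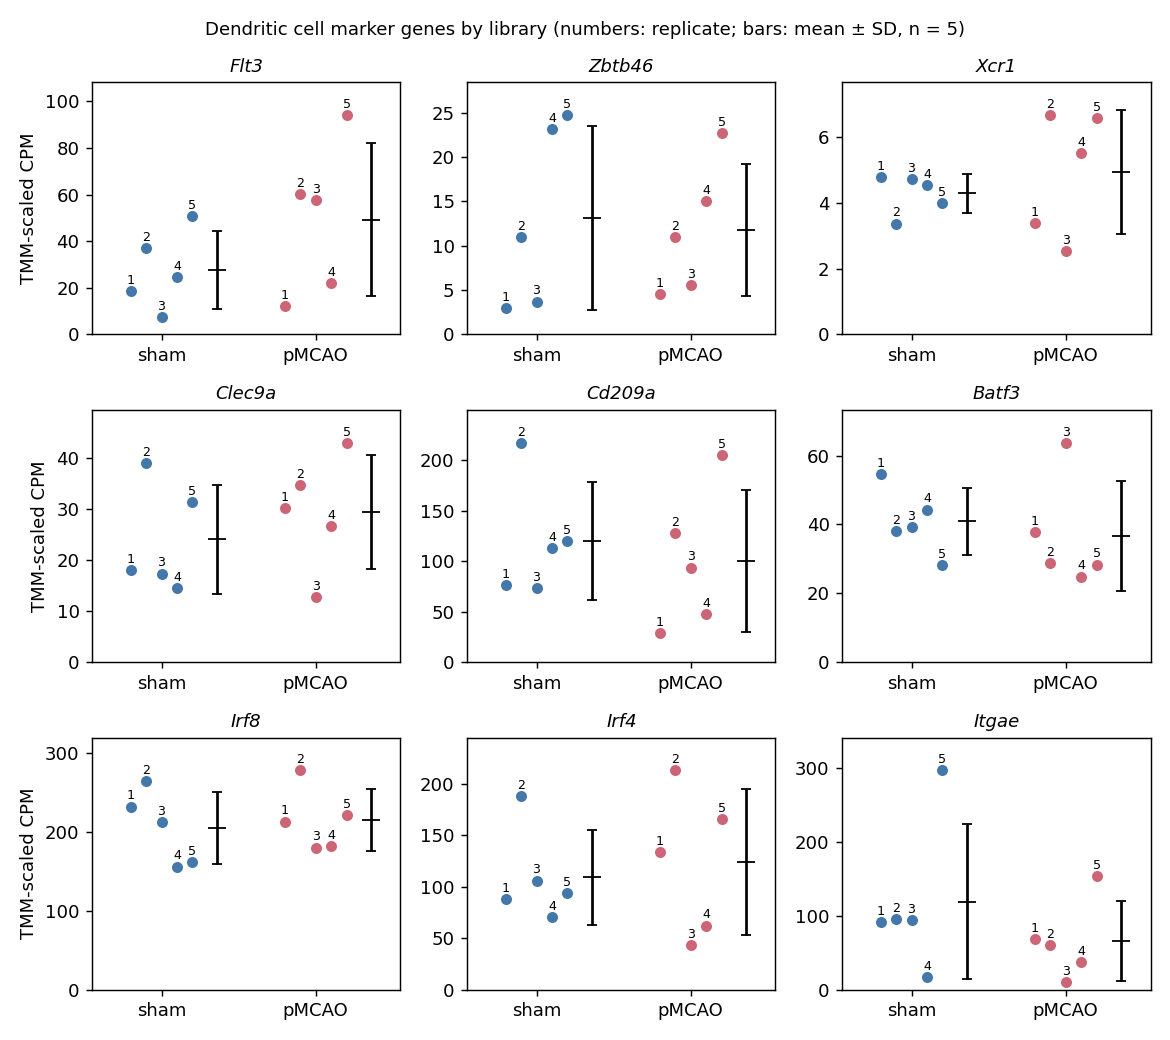
Level of each marker gene in TMM-scaled CPM (vertical axis, from 0) in the 5 sham (blue) and 5 pMCAO (red) libraries, with replicate numbers; bars are mean ± SD. The groups overlap in every panel, and 3 of 5 pMCAO libraries lie above all sham libraries for Flt3.

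Flt3 encodes the receptor for FLT3 ligand, the growth factor of dendritic cell precursors. Its level in sham replicates 1 to 5 was 18.5, 37.1, 7.34, 24.5 and 50.8 CPM. In pMCAO replicates 1 to 5 it was 12.0, 60.3, 57.6, 21.9 and 94.0 CPM. Replicates 2, 3 and 5 of the pMCAO group lay above every sham library, and replicates 1 and 4 lay within the sham range. The means were 27.7 ± 16.8 CPM in sham and 49.2 ± 32.9 CPM in pMCAO (SD, n = 5 each). The log2 fold change was 0.83 (SE 0.56, 95% interval -0.38 to 2.04), with an unadjusted p of 0.160 and an FDR of 0.922 by edgeR. With 1 library left out at a time it lay between 0.46, without pMCAO replicate 5, and 1.17. Without both Xist libraries it was 1.35 (SE 0.59, 95% interval 0.054 to 2.65), with an unadjusted p of 0.0427 and an FDR of 0.999 by edgeR. In that fit Flt3 was the 1 member with an unadjusted p under 0.05, as were 581 of 16753 genes (3.47%). Flt3l, the ligand gene, had 9.62 to 17.4 CPM in sham and 8.53 to 15.8 CPM in pMCAO libraries.

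Zbtb46, the transcription factor that separates conventional dendritic cells from most monocytes and macrophages, was at low levels. The sham libraries held 2.93, 11, 3.69, 23.1 and 24.7 CPM, and the pMCAO libraries 4.54, 11, 5.56, 15.0 and 22.7 CPM. Both groups contained libraries under 5 CPM and libraries above 20 CPM, and every pMCAO library lay within the sham range. The means were 13.1 ± 10.4 CPM and 11.8 ± 7.44 CPM, and the log2 fold change was -0.15 (SE 0.62, 95% interval -1.49 to 1.20, FDR 0.985 by edgeR). Its direction changed with the library left out, from -0.53 without pMCAO replicate 5 to 0.21 without sham replicate 5. ZBTB46 is also known from endothelium. The table lists 4 of 7 endothelial markers, whose sum ranged from 18.0 to 100 CPM in the same libraries. Pecam1, with a mean of 51.5 CPM, made up most of this sum. Cdh5, the endothelial cadherin, had 0.518 to 4.67 CPM in sham and 0.586 to 4.25 CPM in pMCAO libraries. The sum therefore mainly gives the Pecam1 level, and the relation of Zbtb46 with Cdh5 alone was not computed. Across the 10 libraries Zbtb46 and this sum had a Pearson's r of 0.375 (permutation p = 0.298, adjusted p = 0.298 over 5 relations) and a Spearman's rho of 0.297 (permutation p = 0.407, adjusted p = 0.407). Without the 2 libraries farthest from the median sum, r was 0.0114.

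Of the genes tied to cDC1, Xcr1 and Clec9a mark the cells at the surface. Xcr1, the receptor for the chemokine XCL1, was the lowest member, with 23 to 308 counts per library. It stood at 4.78, 3.36, 4.72, 4.53 and 3.98 CPM in sham and at 3.37, 6.65, 2.53, 5.50 and 6.57 CPM in pMCAO libraries. The pMCAO group spread to both sides of the sham group, with replicates 2, 4 and 5 above all sham libraries and replicate 3 below them. The log2 fold change was 0.21 (SE 0.37, 95% interval -0.59 to 1.02, FDR 0.956 by edgeR). Xcl1, its ligand, made mainly by T and NK cells, ranged from 0.0629 to 59.9 CPM in sham and from 2.05 to 25.3 CPM in pMCAO libraries.

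Clec9a encodes a lectin receptor that binds actin exposed by dead cells. Sham libraries held 18.0, 39.0, 17.3, 14.4 and 31.3 CPM, and pMCAO libraries 30.2, 34.7, 12.7, 26.6 and 42.9 CPM. The highest and the lowest level were both in the pMCAO group, and 3 of its 5 libraries lay within the sham range. The means were 24.0 ± 10.6 CPM and 29.4 ± 11.2 CPM, with a log2 fold change of 0.29 (SE 0.35, 95% interval -0.46 to 1.05, FDR 0.943 by edgeR). The GENCODE M21 annotation on GRCm38 places Clec9a on chromosome 6 from 129408862 to 129424763 on the plus strand. There 184 of its 3293 exonic bases (5.59%) are shared with the neighbouring Clec1b on the same strand, and reads in them are uncertain.

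Xcr1 and Clec9a, both markers of cDC1, did not follow each other closely. Their Pearson's r over 10 libraries was 0.398 (permutation p = 0.250, adjusted p = 0.298 over 5 relations) and Spearman's rho was 0.345 (permutation p = 0.329, adjusted p = 0.407). Without the 2 libraries farthest from the median of Clec9a, r was 0.0975. Sham replicate 2 had the second highest Clec9a and the second lowest Xcr1 level.

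Batf3 and Irf8 encode the transcription factors on which cDC1 depend. Batf3 stood at 54.7, 38.1, 39.1, 44.3 and 28.2 CPM in sham and at 37.8, 28.7, 63.7, 24.8 and 28.3 CPM in pMCAO libraries. Replicate 3 of the pMCAO group held the highest Batf3 level of all libraries and the lowest Xcr1 and Clec9a levels. The log2 fold change of Batf3 was -0.16 (SE 0.27, 95% interval -0.75 to 0.43, FDR 0.955 by edgeR). With 1 library left out at a time it lay between -0.46, without pMCAO replicate 3, and -0.033, without sham replicate 1, with no call.

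Irf8, which is also used by monocytes, B cells and plasmacytoid dendritic cells, had the highest mean CPM of the 9 genes and the narrowest range. Its sham levels were 232, 264, 212, 156 and 162 CPM, and its pMCAO levels 213, 278, 180, 182 and 221 CPM. The highest library held 1.78 times the level of the lowest, and 4 of 5 pMCAO libraries lay within the sham range. The means were 205 ± 46.1 CPM and 215 ± 39.7 CPM, with a log2 fold change of 0.065 (SE 0.19, 95% interval -0.35 to 0.48, FDR 0.977 by edgeR). The sign of this value changed without sham replicate 4, sham replicate 5 or pMCAO replicate 2. The summed B cell genes, which include Cd79a of the B cell receptor complex, ranged from 56.2 to 376 CPM. Irf8 and this sum had a Pearson's r of 0.436 (permutation p = 0.208, adjusted p = 0.298 over 5 relations) and a Spearman's rho of 0.418 (permutation p = 0.234, adjusted p = 0.390). Without the 2 libraries farthest from the median sum r was 0.0778, and without sham replicate 5 it was 0.757 (permutation p = 0.0194, adjusted p = 0.0323).

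For cDC2, the list held Cd209a and Irf4. Cd209a encodes a C-type lectin of the DC-SIGN family, found on cDC2 and on dendritic cells derived from monocytes. Sham libraries held 76.4, 217, 73.3, 113 and 120 CPM, and pMCAO libraries 28.6, 128, 93.4, 47.7 and 205 CPM. Replicates 1 and 4 of the pMCAO group lay below every sham library and none lay above them. The means were 120 ± 58.1 CPM and 100 ± 70.1 CPM, and the log2 fold change was -0.25 (SE 0.47, 95% interval -1.27 to 0.77, FDR 0.962 by edgeR). Without sham replicate 2 the value was 0.070. The 6 paralogs Cd209b to Cd209g were also listed, each with a lower mean than Cd209a, and reads from stretches they share are uncertain. Cd209b was the highest of them with a mean of 17.8 CPM. The smallest unadjusted p belonged to Cd209e, with 2.61 to 8.43 CPM in sham and 1.41 to 5.67 CPM in pMCAO libraries (log2 fold change -1.12, SE 0.46, unadjusted p = 0.0324, FDR 0.922 by edgeR).

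Irf4 is required by cDC2 and also by plasma cells, the antibody-secreting cells that are abundant in the lamina propria. The gene stood at 87.8, 188, 106, 70.3 and 93.6 CPM in sham and at 134, 213, 43.3, 62.2 and 166 CPM in pMCAO libraries. The pMCAO libraries lay on both sides of the sham range, with 2 below and 1 above it. The log2 fold change was 0.18 (SE 0.41, 95% interval -0.70 to 1.06, FDR 0.970 by edgeR), and without pMCAO replicate 2 it was -0.11.

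The level of Irf4 followed plasma cell genes from library to library. Their sum, led by Jchain, the joining chain of secreted IgA and IgM, with a mean of 8530 CPM, was 6039, 25357, 8440, 955 and 3754 CPM in sham libraries. In pMCAO libraries it was 8514, 28236, 1267, 1426 and 6849 CPM. The 2 libraries with the highest sum, replicate 2 of each group, also had the highest Irf4 levels, and the 3 with the lowest sum had the lowest. Pearson's r was 0.913 (permutation p = 4.20e-04, adjusted p = 0.00105 over 5 relations) and Spearman's rho was 0.915 (permutation p = 5.50e-04, adjusted p = 0.00137). It was 0.909 without the 2 libraries farthest from the median sum, 0.915 with the group means removed, 0.924 without both pooled libraries and 0.899 without both Xist libraries. The part of plasma cell RNA in the Irf4 level was not tested beyond this relation.

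Itgae, the alpha chain of CD103, which pairs with the beta 7 chain and binds E-cadherin on epithelium, had the widest range of the 9 genes. It stood at 92.0, 95.9, 94.2, 16.9 and 297 CPM in sham and at 68.7, 60.5, 10.5, 37.8 and 154 CPM in pMCAO libraries. Sham replicate 5 was 28.2 times as high as pMCAO replicate 3, and sham replicate 4 lay below 4 of the 5 pMCAO libraries. The means were 119 ± 105 CPM and 66.4 ± 54.2 CPM, and the log2 fold change was -0.84 (SE 0.69, 95% interval -2.34 to 0.66, unadjusted p = 0.245, FDR 0.922 by edgeR). Without sham replicate 5 the log2 fold change was -0.18, without both Xist libraries -0.030, and without pMCAO replicate 5 -1.43. Itgb7, the partner chain, ranged from 15.3 to 109 CPM in sham and from 12.7 to 88.5 CPM in pMCAO libraries.

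CD103 is also carried by intraepithelial T cells, and Itgae followed the T cell genes across libraries. The summed level of 10 T cell genes, among them Cd3e and Cd8a, was 129, 235, 192, 27.4 and 441 CPM in sham and 121, 140, 47.3, 68.2 and 242 CPM in pMCAO libraries. The 2 highest Itgae libraries, replicate 5 of each group, had the highest sums, and the 2 lowest, sham replicate 4 and pMCAO replicate 3, had the lowest. Pearson's r was 0.948 (permutation p = 5.00e-05, adjusted p = 2.50e-04 over 5 relations) and Spearman's rho 0.952 (permutation p = 1.80e-04, adjusted p = 9.00e-04). It was 0.929 without the 2 libraries farthest from the median sum, 0.948 with the group means removed, 0.956 without both pooled libraries and 0.927 without both Xist libraries. All 10 T cell genes had a negative log2 fold change, with a median of -0.86 beside -0.0059 over all genes tested, and 0 had an FDR of at most 0.05.

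Per kilobase of transcript, however, Itgae stood above Cd3e in 9 of 10 libraries, at 4.20 to 13.7 times its level in sham and 0.676 to 4.01 times in pMCAO libraries. The groups did not overlap in this ratio, 1 of 8 ratios between genes that were computed, and no test was made on it. The ratio depends on the T cell gene chosen, and ratios to other T cell genes were not computed. Cd3e had the highest log2 fold change of the T cell list, -0.13 beside a list median of -0.86. The highest ratio came from sham replicate 4, where Cd3e was at 0.818 CPM. The gene second most like Itgae among 15378 genes was Ms4a2, the beta chain of the high-affinity IgE receptor of mast cells (Pearson's r of 0.993 with group means removed). Ms4a2 ranged from 11.4 to 149 CPM in sham and from 6.77 to 77.4 CPM in pMCAO libraries. Further mast cell genes were therefore looked up after these values had been seen, and no test was made on them as a group. Mcpt1, a mucosal mast cell protease, stood at 4220, 3396, 3570, 1078 and 9664 CPM in sham and at 1464, 769, 191, 600 and 3038 CPM in pMCAO libraries. The 7 listed of 9 mast cell genes (Ms4a2, Cpa3, Fcer1a, Mcpt1, Mcpt2, Kit and Cma1) summed to 2169 to 20626 CPM in sham and 464 to 6807 CPM in pMCAO libraries. Sham replicate 5 had the highest and pMCAO replicate 3 the lowest sum, as for Itgae. Their log2 fold changes lay between -1.86 for Mcpt1 and -0.72 for Kit, all with an FDR of at least 0.922 by edgeR, although Mcpt1 and Mcpt2 had an unadjusted p of 0.0180 and 0.0228. What T cells and mast cells each contributed to the Itgae level was not tested.

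**Figure D2:**
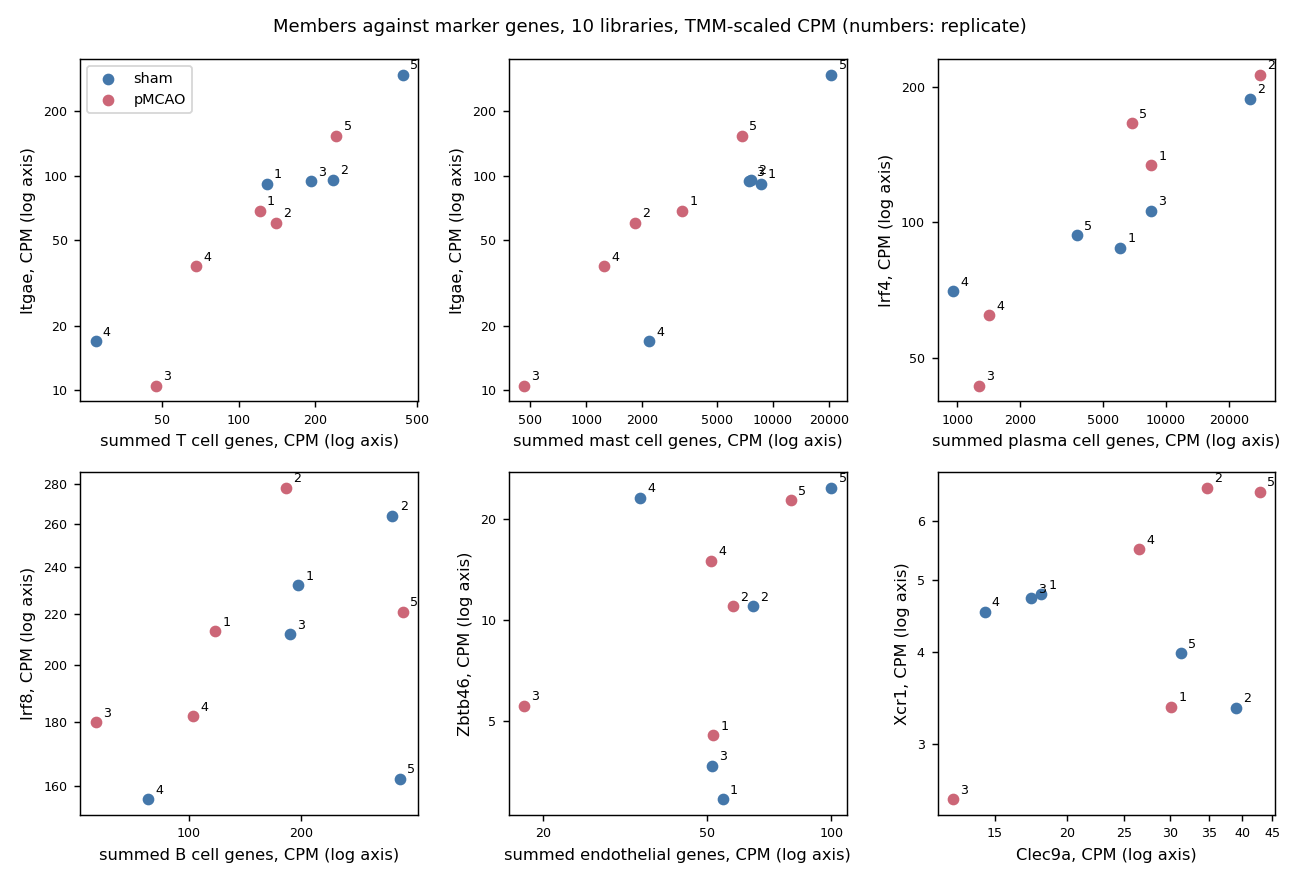
Each panel plots 1 member in TMM-scaled CPM against the summed CPM of marker genes of a cell type, or against Clec9a, on log axes; points are the 5 sham (blue) and 5 pMCAO (red) libraries with replicate numbers. Itgae rises with the T cell and mast cell genes and Irf4 with the plasma cell genes, whereas the panels of Irf8, Zbtb46 and Xcr1 show wide scatter.

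**Figure D3:**
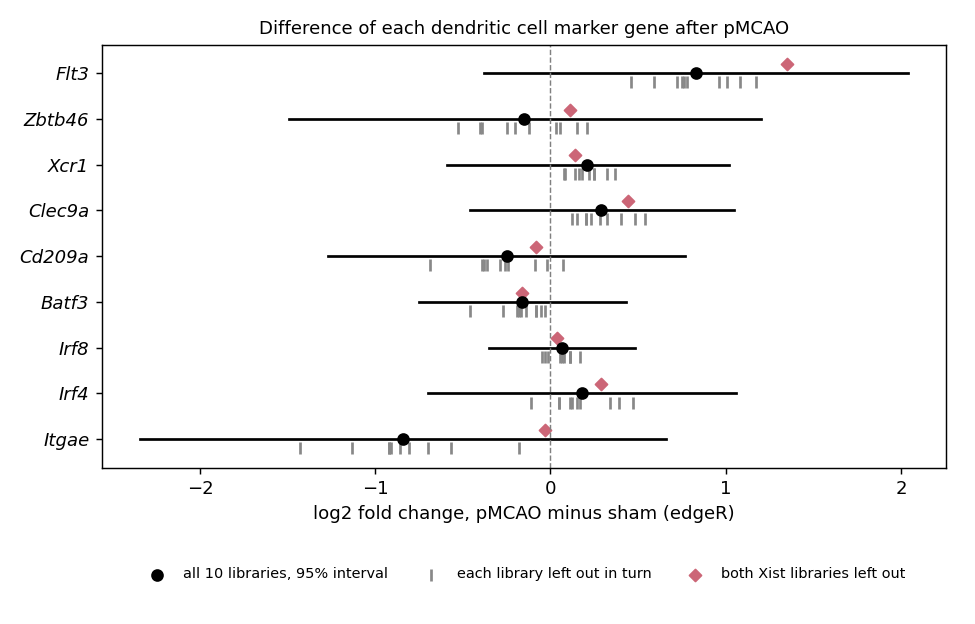
Log2 fold change of pMCAO against sham for each gene (horizontal axis), with all 10 libraries and the 95% interval (black), with each library left out in turn (grey ticks) and without both Xist libraries (red diamonds). All 9 black intervals include 0, and without both Xist libraries the value of Itgae moves from -0.84 to -0.030.

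To compare the genes with each other, the CPM were divided by the length of the longest GENCODE M21 transcript. On this scale the mean over 10 libraries was highest for Cd209a (74.4 CPM per kilobase), followed by Irf8 (60.5), Batf3 (34.9), Irf4 (24.5), Itgae (24.1), Flt3 (9.72), Clec9a (8.11), Zbtb46 (2.34) and Xcr1 (1.03). Neighbours in this order were often not separated. Cd209a exceeded Irf8 in 6 of 10 libraries, Irf4 exceeded Itgae in 6 of 10 and Flt3 exceeded Clec9a in 5 of 10. Clec9a exceeded Zbtb46 in 10 of 10 libraries and Irf8 exceeded Batf3 in 9 of 10. The order depends on the length used. With the median transcript length the means of Clec9a, Cd209a, Batf3, Irf8 and Zbtb46 were 30.8, 127, 48.4, 164 and 4.82 CPM per kilobase.

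Xcr1, Zbtb46, Clec9a and Flt3 were low beside Csf1r, one of the highest macrophage genes. Relative to Csf1r per kilobase, Xcr1 lay between 0.174% and 0.874% over the 10 libraries, Zbtb46 between 0.230% and 4.05%, Clec9a between 1.19% and 8.26%, and Flt3 between 0.632% and 14.1%. Relative to Mertk, a lower macrophage gene, Zbtb46 lay between 1.30% and 19.1%. These ratios rest on the longest transcripts and were not computed with another length. The highest of each of these ratios came from replicate 5 of one of the groups, the libraries with the lowest summed macrophage genes. Among the macrophage markers the means per kilobase were 246 CPM for Csf1r, 149 for Adgre1 (F4/80), 46.6 for Mertk, 37.8 for Cx3cr1, 335 for C1qa, 263 for Cd68 and 46.6 for Fcgr1 (CD64). Itgax, encoding CD11c, which intestinal macrophages and dendritic cells share, had 59.8 CPM per kilobase.

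**Figure D4:**
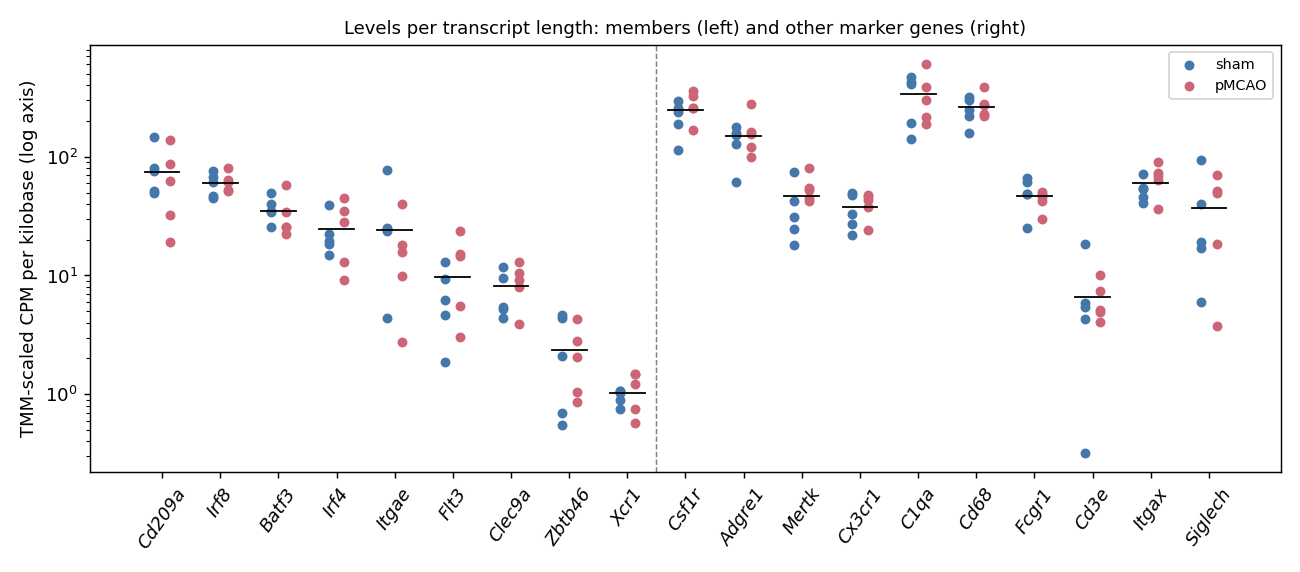
TMM-scaled CPM per kilobase of the longest transcript (log axis) for the 9 members (left of the dashed line) and other marker genes (right) in sham (blue) and pMCAO (red) libraries; black lines are means over 10 libraries. Xcr1 (mean 1.03) and Zbtb46 (2.34) lie lowest, and Csf1r (246), C1qa (335) and Cd68 (263) have means above those of all members.

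Further genes of the dendritic lineage gave 0 calls at an FDR of at most 0.05 in every list, so only their values follow. Of 10 other cDC1 genes 6 had a positive log2 fold change (median 0.14). Tlr3, the receptor for double-stranded RNA, had the smallest unadjusted p, with 29.6 to 40.9 CPM in sham and 39.1 to 60.0 CPM in pMCAO libraries (log2 fold change 0.60, SE 0.17, unadjusted p = 0.00368, FDR 0.922 by edgeR). Wdfy4, needed for cross-presentation, was the highest of this list with a mean of 180 CPM. Of 8 other cDC2 genes 7 had a positive value (median 0.19), the highest being Sirpa, an inhibitory receptor shared with macrophages, with a mean of 451 CPM. Clec4a4, which encodes DCIR2, had the smallest p of that list (log2 fold change 1.05, SE 0.52, unadjusted p = 0.0662, FDR 0.922 by edgeR) at 0.517 to 6.06 CPM. Of 5 genes of surface and function 3 had a positive value (median 0.059). Ciita, the master regulator of MHC class II genes, was the highest of them with 288 CPM, and Dpp4 (CD26) had the smallest p (log2 fold change 0.41, SE 0.20, unadjusted p = 0.0664, FDR 0.922 by edgeR).

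Of 9 genes of mature and migratory dendritic cells 4 had a positive log2 fold change (median -0.057). Ccr7, the receptor that guides them to lymph nodes, ranged from 2.06 to 20.7 CPM in sham and from 2.49 to 16.3 CPM in pMCAO libraries. Fscn1, encoding the actin-bundling protein fascin, had 0.755 to 5.60 CPM in sham and 2.93, 4.81, 31.1, 7.46 and 4.09 CPM in pMCAO libraries (log2 fold change 1.93, SE 0.71, unadjusted p = 0.0179, FDR 0.922 by edgeR). In 3 of 5 pMCAO libraries Fscn1 lay within the sham range, and replicate 3 stood apart from the others. Cd83 was the highest of this list with a mean of 261 CPM. Among 9 plasmacytoid dendritic cell genes 3 had a positive value (median -0.41). Siglech, a surface lectin of these cells, ranged from 13.8 to 218 CPM in sham and from 8.65 to 161 CPM in pMCAO libraries. Tcf4, which encodes the lineage factor E2-2, was the highest of that list with a mean of 316 CPM (log2 fold change 0.44, SE 0.17, unadjusted p = 0.0237, FDR 0.922 by edgeR).

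Ligands, partners and signalling genes of the 9 members had a positive log2 fold change in 1 of 16 cases (median -0.27). Other IRF and BATF genes had one in 1 of 9 (median -0.33), again with 0 calls. Of all genes tested 8367 of 16949 had a positive value. Batf is counted in both lists. Batf, a relative of BATF3 that can stand in for it, had 15.0 to 23.2 CPM in sham and 11.1 to 19.1 CPM in pMCAO libraries (log2 fold change -0.56, SE 0.22, unadjusted p = 0.0224, FDR 0.922 by edgeR). Irf7, the regulator of type I interferon genes, had 36.4 to 48.0 CPM in sham and 23.4 to 41.5 CPM in pMCAO libraries (log2 fold change -0.55, SE 0.18, unadjusted p = 0.0103, FDR 0.922 by edgeR). Jun, a partner of BATF factors, was the highest of the partner list with a mean of 1245 CPM, and Irf5 of the IRF and BATF list with 128 CPM.

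The lists of other cell types gave 0 calls each as well. Median log2 fold changes were 0.035 for 14 macrophage, -0.13 for 5 monocyte, -0.31 for 5 NK and innate lymphoid cell, -0.56 for 6 B cell, 0.072 for 6 plasma cell, 0.046 for 4 endothelial and -0.67 for 7 epithelial genes. All 6 B cell and all 5 NK and innate lymphoid cell genes had negative values, as did 5 of 7 epithelial genes. Plac8 of the monocyte list had the smallest p of these lists, with 145 to 554 CPM in sham and 70.7 to 249 CPM in pMCAO libraries (log2 fold change -1.08, SE 0.41, unadjusted p = 0.0227, FDR 0.922 by edgeR). The genes with the smallest p of the other lists had an FDR of 0.922 or more by edgeR, with log2 fold changes of 1.01 for Cd163, a scavenger receptor of macrophages, -0.50 for Klrk1 of NK cells, -0.44 for Cd79b of B cells, 0.40 for Derl3 of plasma cells, -0.27 for Pecam1 and -0.78 for the keratin gene Krt18. Cd2, which had the smallest p of the T cell list, had 7.17 to 28.9 CPM in sham and 2.63 to 20.3 CPM in pMCAO libraries. The highest means within their own lists were 6720 CPM for Lyz2 of macrophages, 831 for Ccr2 of monocytes and 186 for Muc2 of goblet cells. Jchain of the plasma cell list was higher than these, with 8530 CPM. Il7r led the NK and innate lymphoid cell list with a mean of 38.5 CPM. Epcam ranged from 83.2 to 130 CPM in sham and from 14.1 to 126 CPM in pMCAO libraries, with 4 pMCAO libraries below every sham library. Of 4 neutrophil genes 2 were tested, Csf3r having the higher level with a mean of 88.4 CPM. The other tested gene had 0 to 9.53 CPM in sham and 0.202 to 12.2 CPM in pMCAO libraries. Of the remaining genes, 1 was not listed and 1 had at most 6.23 CPM, so the list was otherwise low.

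The members did not vary as 1 group over the libraries. With group means removed, the 36 pairs of members had Pearson's r between -0.740 for Clec9a with Batf3 and 0.886 for Flt3 with Cd209a, given here as a description over 10 libraries that share depth and cell composition. Clec9a also varied with Irf4 (r of 0.819) and Itgae (r of 0.813), and Irf8 with Irf4 (r of 0.786). Among the r of all genes compared with the first gene of the pair, these lay at the percentiles 97.0, 96.7 and 97.1. Many other genes thus had a higher r. Batf3 had a negative r with each of the other 8 members, but with Irf8 (-0.0588), Flt3 (-0.135) and Cd209a (-0.167) it was near 0.

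Genes most like each member were taken from 15378 genes with a mean of at least 1 CPM, by the same measure, and with so many genes a high r for the closest is to be found for any gene. For Flt3 they were Mcemp1 (r of 0.961), Grpel1 (0.936) and S100a6 (0.932). S100a6 (0.931) was also among the 3 of Cd209a, with Mtmr14 (0.949) and Loh12cr1 (0.934). For Irf4 the closest was Ighv1-19, an immunoglobulin heavy chain segment (0.975), followed by Ell2, an elongation factor of antibody-secreting cells (0.973), and Gpr35 (0.972). Igkv4-57-1, a kappa chain segment (0.953), was closest to Irf8, with Gm10250 (0.952) and Gm13736 (0.936). Clec9a had Slc25a53 (0.988), Foxo1 (0.972) and Rbl2 (0.967), and Itgae had Nedd4 (0.993) and Hey1 (0.989) beside Ms4a2. Zbtb46 had U2af1 (0.985), Kmt2c (0.941) and 4930403O15Rik (0.934). Batf3 had Tmc4 (0.957), Rab24 (0.955) and Gpank1 (0.954), and Xcr1 had Psmg1 (0.939), Tbc1d22a (0.925) and Gm6851 (0.925).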

How the data were processed

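RNA from the sorted cells was depleted of ribosomal RNA and sequenced in pairs of reads. The authors deposited unnormalised read counts for each gene and CPM values, which were counts scaled to each library's total and were used only to check the counts. Authors' fold changes, expression means and p-values in the table were not used. Per the submitters' processing notes, STAR, featureCounts and limma were used with GRCm38 (mm10). Versions and strandedness are not given in the sources used here.

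Counts were filtered with filterByExpr, scaled by TMM and compared with edgeR 4.0.16 (R 4.3.3) by its quasi-likelihood test over all genes, with an FDR limit of 0.05. For correlations, log2 CPM with a prior of 2 were used with two-sided permutation tests. These took 100000 random permutations for 10 libraries and all permutations where libraries were left out. Alternatives used DESeq2 1.42.0 and limma 3.58.1. The test was checked on simulated data. Depth was lower in the pMCAO group (median total 11605371 against 33913980), so low counts are less precise there. The labels call the samples biological replicates. For all library pairs counts differed by more than sampling noise. Members and gene lists were chosen with earlier results of these data known. Named were the members, and from each list the gene with the highest mean and that with the smallest p, fixed marker genes, and the 3 genes most like each member. Mast cell genes were chosen after their values were seen. One of the fixed marker genes is not reported here.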

Additional observations from a re-analysis of the deposited data

How the results depend on the processing

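No member had an FDR of at most 0.05 under any of 20 alternatives. DESeq2 called 3 genes, among them Rbp7 and Tppp3 and none a member, where edgeR called 0, and its count at an unadjusted p under 0.05 was 1011. Genes with an unadjusted p under 0.05 numbered 1888 by limma-voom with sample quality weights, 462 without both pooled libraries and 1268 without pMCAO replicate 2, against 799. Members with one numbered 1 (Flt3) without both Xist libraries. Flt3, Xcr1, Clec9a, Batf3 and Itgae kept their direction throughout. The log2 fold change of Zbtb46 turned to 0.31 by limma-voom, 0.59 with sample quality weights and 0.11 without both Xist libraries, and lay between -0.53 and 0.21 when single libraries were left out. That of Irf8 turned to -0.014 with sample quality weights. With single libraries left out it lay between -0.048 and 0.17, that of Cd209a between -0.69 and 0.070 and that of Irf4 between -0.11 and 0.47. The correlation of Irf8 with B cell genes was 0.737 in CPM scaled to total counts, where it passed the threshold (permutation p = 0.0138, adjusted p = 0.0230), and 0.295 to 0.757 with each library left out. The causes were not tested.

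The labels do not say whether same-numbered libraries of the groups belong together. Correlations of their deviations from the group means ran from 0.00367 to 0.482 (mean 0.274), and 5 of 10 libraries were closest to their own number. Whether such libraries shared a day or batch was not tested, and the main test treated all libraries as independent. With the replicate number as a block, 0 genes were called, 1303 had an unadjusted p under 0.05, and Zbtb46 had a log2 fold change of 0.077.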
